A study of Mus musculus with 32 samples.

Results

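Expression of 9 genes of the thick ascending limb and the distal convoluted tubule was followed in mouse kidney after cisplatin, a platinum drug that injures tubule cells. The genes were Umod, Slc12a1, Slc12a3, Kcnj1, Trpm6, Pvalb, Cldn16, Cldn19 and Wnk1. They were chosen by name for their role in these segments, with earlier results of these data known. They made up 9 of the 23743 genes and transcripts tested. All 9 were measured: their 11 array probes, a pair each for Pvalb and Wnk1, read well above background on all 32 arrays, so none entered through a filter on low values.

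The thick ascending limb reabsorbs salt without water and drives the uptake of calcium and magnesium between its cells. Slc12a1 (NKCC2, the target of furosemide) carries sodium, potassium and chloride in, Kcnj1 (ROMK) returns potassium to the lumen, and Cldn16 and Cldn19 form the paracellular path for magnesium and calcium. Umod encodes uromodulin, the most abundant protein of normal urine, which thick limb cells secrete. The distal convoluted tubule follows: Slc12a3 (NCC) is the thiazide-sensitive sodium chloride cotransporter, Trpm6 the apical magnesium channel, and Pvalb the calcium-binding protein parvalbumin of its early part. Wnk1 encodes a kinase that, through the kinases SPAK and OSR1, sets the activity of NKCC2 and NCC, and the kidney makes a short form of it in the distal convoluted tubule. Loss of magnesium in urine is a known effect of cisplatin treatment.

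Whole kidneys came from male mice of 12 to 16 weeks. Wild-type C57BL/6 mice (Charles River) and miR-155-/- mice, which lack the microRNA miR-155 in every cell (strain B6.Cg-Mir155tm1.1Rsky/J, first bought from The Jackson Laboratory), received saline, the 0 h group, or a single injection of cisplatin at 20 mg/kg and were collected 24, 48 or 72 h later. Each of the 8 groups held 4 arrays, 1 kidney RNA each, and the comparisons ask how cisplatin changed expression and whether the loss of miR-155 altered that change. The wild-type mice came from another supplier and are not described as littermates, so genotype and source cannot be told apart. The array holds 0 probes named for the miR-155 gene, so the deletion itself could not be checked here.

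To show the regulatory sequence next to the start of genes that followed different courses, the 250 bases before the start site of 4 of them are given below from RefSeq (GRCm38.p6), 5′ to 3′ on the gene's strand, with motif matches in capitals. They belong to Umod (chr7:119479263-119479512, minus strand), Slc12a1 (chr2:125152350-125152599, plus strand), Slc12a3 (chr8:94328958-94329207, plus strand) and Trpm6 (chr19:18749480-18749729, plus strand).
Umod: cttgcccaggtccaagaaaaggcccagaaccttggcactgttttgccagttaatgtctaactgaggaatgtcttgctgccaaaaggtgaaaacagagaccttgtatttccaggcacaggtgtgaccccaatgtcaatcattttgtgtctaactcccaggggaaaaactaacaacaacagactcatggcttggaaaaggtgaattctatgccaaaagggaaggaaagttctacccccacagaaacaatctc
Slc12a1: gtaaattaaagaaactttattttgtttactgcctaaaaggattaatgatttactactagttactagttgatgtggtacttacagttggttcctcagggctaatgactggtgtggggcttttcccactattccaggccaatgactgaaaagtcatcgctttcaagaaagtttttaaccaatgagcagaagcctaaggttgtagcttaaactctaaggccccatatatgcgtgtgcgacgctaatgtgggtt
Slc12a3: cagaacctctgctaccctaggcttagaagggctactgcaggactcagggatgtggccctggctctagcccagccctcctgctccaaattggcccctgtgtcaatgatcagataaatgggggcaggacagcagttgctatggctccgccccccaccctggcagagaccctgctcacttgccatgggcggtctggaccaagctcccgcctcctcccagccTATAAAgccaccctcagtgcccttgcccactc
Trpm6: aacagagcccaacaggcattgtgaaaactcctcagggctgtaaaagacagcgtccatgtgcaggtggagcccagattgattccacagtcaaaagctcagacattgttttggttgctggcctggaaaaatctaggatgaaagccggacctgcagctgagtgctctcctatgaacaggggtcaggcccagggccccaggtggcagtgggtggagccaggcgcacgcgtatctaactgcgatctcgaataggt
These windows were searched on both strands for the estrogen-related receptor site TCAAGGTCA, for TATAAA and for the cyclic AMP response element TGACGTCA. The Slc12a3 window held TATAAA at 32 to 27 bases before the start, present in 12.4% of 32851 RefSeq promoter windows. None of these letters occurred in the Umod, Slc12a1 and Trpm6 windows. Across all windows the receptor site occurred in 0.387% and the cyclic AMP element in 1.55%. With a single match in the windows shown, no overlap between motifs could arise. A match is a description of the letters only.

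Levels are given as log2 signal minus the array's 75th percentile, so a level of 0 equals that percentile and each unit is a doubling of signal. Before scaling, the 75th percentile ranged from 1531.5 to 2646.8 units of intensity, and 67.9% to 81.8% of probes per array were well above background. Differences come from 1 limma fit over all 32 arrays, and a gene was called at a Benjamini-Hochberg adjusted p under 0.05 over all 23743 genes. A level in whole kidney falls alike with fewer cells of a type and with less RNA per cell, and the arrays cannot tell these apart. The 3 comparisons of treated with saline kidneys within a genotype share their 4 saline arrays, so they are not independent of each other.

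A pair of arrays stood apart, replicate 3 of the miR-155-/- group at 24 h and replicate 3 at 48 h. Correlations between replicate arrays went down to 0.962 and 0.957 in these groups, against 0.986 or more in the other 6 groups. On both arrays, Slc12a1, Kcnj1, Cldn16, Cldn19 and Wnk1 were the lowest of their group, by wide gaps for Cldn16 (-3.70 and -4.02, with the others from -1.36 to -0.82), while Pvalb was the highest of its group (-0.07 and -1.04). Some marker lists moved with them: all 10 intercalated cell markers were the lowest of their group on both arrays, 6 of 7 red blood cell markers were the highest on both, and 6 and 7 of 9 tubular injury markers were the highest. Other lists differed between the 2 arrays. On the 24 h array 10 of 16 proximal tubule and 4 of 7 podocyte markers were the highest. On the 48 h array 12 of 16 and 6 of 7 were the lowest. Over all genes tested, 30.0% and 43.7% were the lowest of their group on these arrays and 46.3% and 40.0% the highest. The summed level of the red blood cell markers, in multiples of the 75th percentile, ran from 4.97 to 36.7 in the 24 h group and from 2.15 to 129 in the 48 h group, the top value coming from these arrays. The part of these differences in the results was not tested. For each of the 9 genes the 24 h and 48 h differences of miR-155-/- kidneys from saline are given with and without both arrays. Other values of these genes are given both ways where a call changed. Of those whose direction turned or whose size changed by over 1.5 times, only a part is given both ways.

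**Figure D1:**
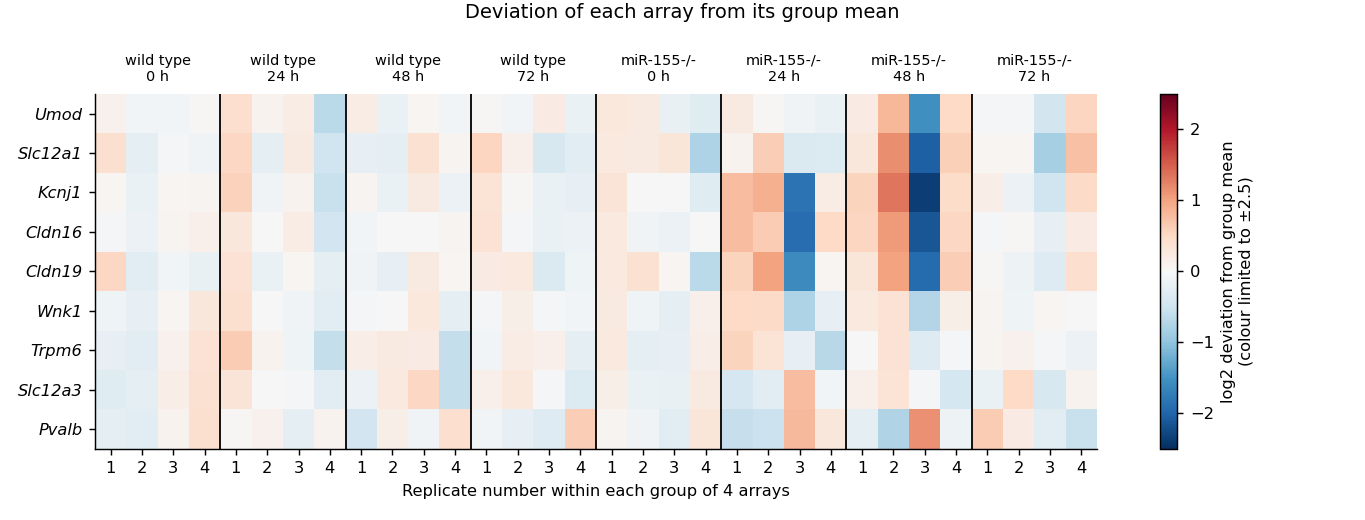
Each column is 1 of the 32 arrays and each row 1 gene; colour gives the array's log2 level minus the mean of its group of 4, red above and blue below, limited to 2.5 either way. The strongest blue cells lie in replicate 3 of the miR-155-/- groups at 24 h and 48 h, where Kcnj1, Cldn16 and Cldn19 are low and Pvalb is high. The strongest red cell is Kcnj1 in replicate 2 of the miR-155-/- group at 48 h (1.34).

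At 24 h after cisplatin, 7 of the 9 genes fell in wild-type kidneys, where 17.6% of all genes tested were called lower. The same 7 genes, Umod, Slc12a1, Kcnj1, Slc12a3, Trpm6, Pvalb and Wnk1, also fell in miR-155-/- kidneys, where 22.5% of all genes were called lower. The median difference over the 9 genes was -1.58 in wild type and -1.63 in miR-155-/- kidneys, against 0.07 and -0.01 over all genes. After that the courses parted: Slc12a3, Trpm6 and Wnk1 were still lower than with saline at 72 h, Pvalb fell further, and Umod rose again in both genotypes.

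**Figure D2:**
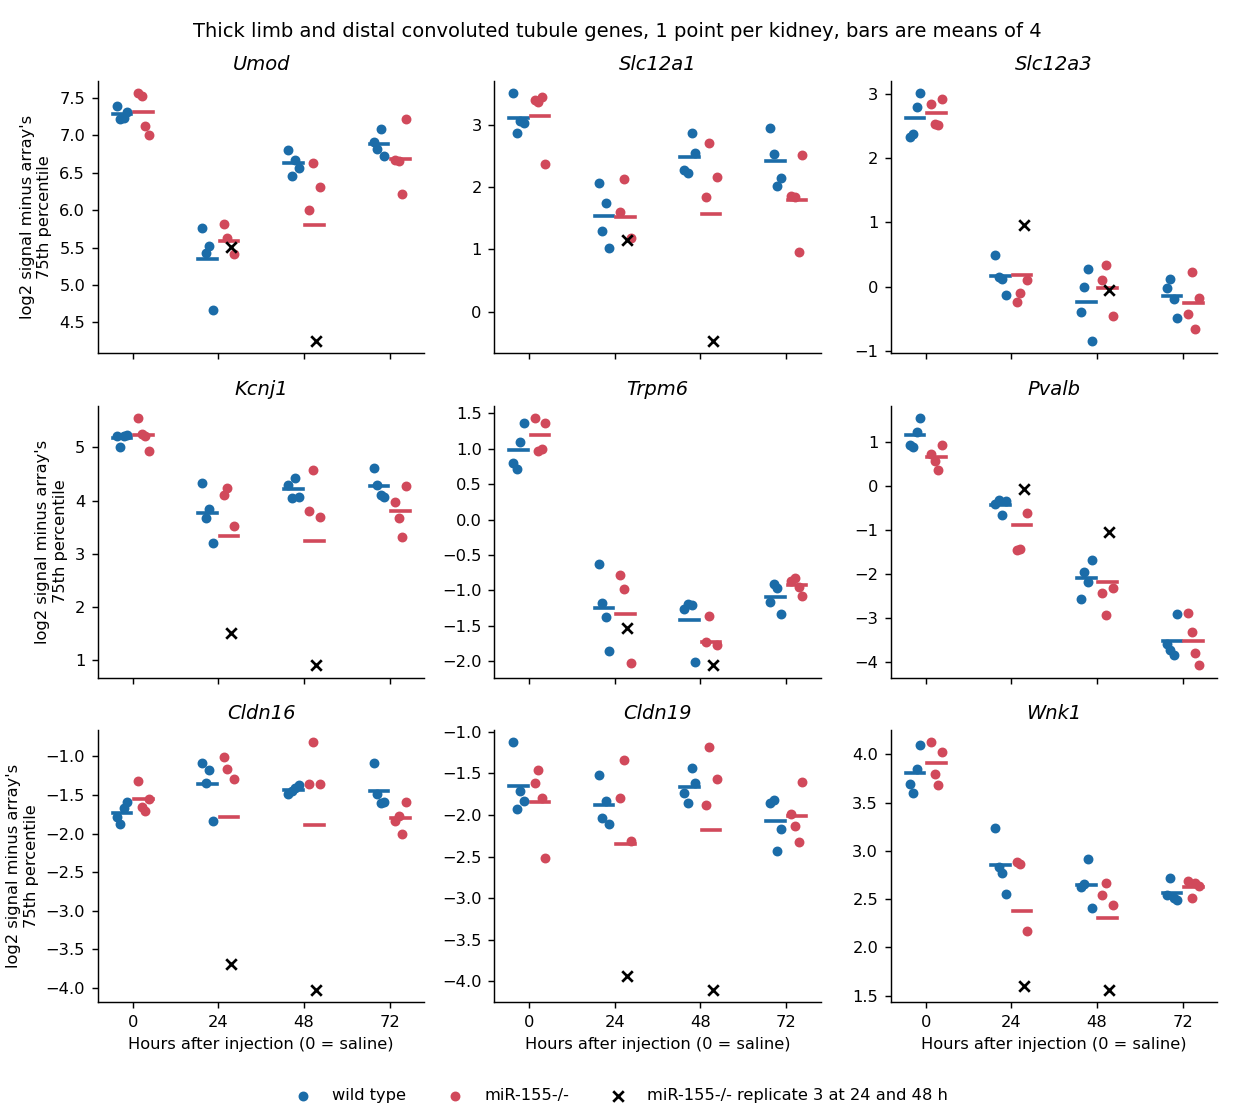
Log2 signal minus the array's 75th percentile for each gene (y axis, own scale per panel) against hours after injection, 0 being saline; each point is 1 kidney, bars are means of 4, and crosses mark replicate 3 of the miR-155-/- groups at 24 and 48 h. Umod returns towards saline between 24 and 72 h, Slc12a3 and Trpm6 stay low, and Pvalb steps down at every time.

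Umod, the thick limb's secreted product, read 7.39, 7.21, 7.22 and 7.32 in the 4 wild-type saline kidneys and 5.76, 5.42, 5.53 and 4.67 at 24 h. At 48 h it read 6.80, 6.46, 6.67 and 6.56, and at 72 h 6.91, 6.82, 7.09 and 6.73. The 24 h kidneys lay below all others, and the 48 h and 72 h kidneys lay between them and saline with no overlap with either. Umod thus fell by 1.94 ± 0.30 (SE, n = 4 per group) at 24 h, to 26.1% of saline (adjusted p = 1.1e-05). It then rose by 1.28 ± 0.30 from 24 to 48 h (adjusted p = 0.00499) and by 1.54 ± 0.30 from 24 to 72 h (adjusted p = 0.000316). The levels at 48 h and 72 h were 63.2% and 75.8% of saline, differences of -0.66 (adjusted p = 0.117) and -0.40 (adjusted p = 0.368) that were not called, although all 4 kidneys lay below all 4 saline kidneys at each time. Without the 2 arrays that stand apart the 48 h difference passed (adjusted p = 0.00794).

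Umod in miR-155-/- kidneys read 7.56, 7.52, 7.12 and 7.01 with saline, 5.81, 5.63, 5.51 and 5.41 at 24 h, 6.01, 6.63, 4.26 and 6.31 at 48 h, and 6.66, 6.65, 6.22 and 7.21 at 72 h. All treated kidneys at 24 and 48 h lay below all saline kidneys, and at 72 h 1 of 4 reached into the saline range. The fall was 1.71 ± 0.30 at 24 h (adjusted p = 4.2e-05; -1.69 without both arrays that stand apart) and 1.51 ± 0.30 at 48 h (adjusted p = 0.000249). The single value of 4.26 weighs on the 48 h mean: without both arrays that stand apart the 48 h difference was -0.99, more than 1.5 times smaller, still called (adjusted p = 0.000399). Umod rose by 1.10 ± 0.30 from 24 to 72 h (adjusted p = 0.00639). From 24 to 48 h it differed by 0.21, not called, and by 0.69 without both arrays (adjusted p = 0.0283). The 72 h difference from saline of -0.62 was not called (adjusted p = 0.117), and was called without both arrays (adjusted p = 0.00939).

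Slc12a1, the thick limb's salt carrier, read 3.51, 2.87, 3.07 and 3.04 in wild-type saline kidneys and 2.06, 1.30, 1.75 and 1.03 at 24 h. It read 2.28, 2.24, 2.88 and 2.56 at 48 h and 2.96, 2.54, 2.02 and 2.16 at 72 h. The saline and 24 h kidneys did not overlap, whereas the later kidneys reached into the saline range. Slc12a1 fell by 1.59 ± 0.43 at 24 h, to 33.3% of saline (adjusted p = 0.00455). The differences at 48 h (-0.63, 95% interval -1.52 to 0.26) and 72 h (-0.70, 95% interval -1.59 to 0.19) were not called. The differences from 24 h, 0.95 at 48 h and 0.88 at 72 h, were not called either (adjusted p = 0.157 and 0.138), and both were called without the 2 arrays that stand apart (adjusted p = 0.0188 and 0.0199).

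Slc12a1 in miR-155-/- kidneys read 3.40, 3.37, 3.45 and 2.38 with saline, 1.61, 2.14, 1.15 and 1.18 at 24 h, 1.84, 2.72, -0.47 and 2.16 at 48 h, and 1.85, 1.85, 0.96 and 2.52 at 72 h. The fourth saline kidney lay well below the other 3, and 1 kidney each at 48 h and 72 h read above it. Slc12a1 fell by 1.63 ± 0.43 at 24 h (adjusted p = 0.00267), by 1.59 ± 0.43 at 48 h (adjusted p = 0.00406) and by 1.35 ± 0.43 at 72 h (adjusted p = 0.0149). Without both arrays that stand apart the 24 h value was -1.51 and the 48 h value -0.91 (adjusted p = 0.000318 and 0.0268), and the 48 h call was lost when only the 2 compared groups were fitted (adjusted p = 0.0857). The 72 h call was lost without replicate 3 of that group (adjusted p = 0.0738).

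Kcnj1, the potassium channel that works beside NKCC2, read 5.22, 5.01, 5.22 and 5.23 in wild-type saline kidneys, 4.33, 3.67, 3.84 and 3.19 at 24 h, 4.29, 4.05, 4.43 and 4.07 at 48 h, and 4.61, 4.30, 4.10 and 4.06 at 72 h. Every treated wild-type kidney lay below every saline kidney. Kcnj1 fell by 1.41 ± 0.51 at 24 h (adjusted p = 0.0289), and the differences of -0.96 at 48 h (adjusted p = 0.183) and -0.90 at 72 h (adjusted p = 0.208) were not called in the fit over all arrays. On the 2 arrays that stand apart Kcnj1 read 1.50 and 0.90, against 3.52 or more in the other kidneys of their groups. Without them its standard error was 0.22 in place of 0.51, and the 24, 48 and 72 h falls all passed (adjusted p = 7.2e-06, 0.00121 and 0.00195). The 24 h call was lost, at adjusted p from 0.0553 to 0.0914, without wild-type saline replicate 1, 3 or 4 or without 24 h replicate 2 or 4.

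Kcnj1 in miR-155-/- kidneys read 5.56, 5.25, 5.22 and 4.93 with saline, 4.11, 4.24, 1.50 and 3.52 at 24 h, 3.81, 4.58, 0.90 and 3.70 at 48 h, and 3.98, 3.67, 3.31 and 4.28 at 72 h. Treated and saline kidneys again did not overlap at any time. Kcnj1 fell by 1.90 at 24 h (adjusted p = 0.003), 1.99 at 48 h (adjusted p = 0.00246) and 1.43 at 72 h (adjusted p = 0.029), each ± 0.51. Without both arrays that stand apart the first pair of values was -1.28 and -1.21, still called. The 48 h call was lost when the compared groups were fitted alone (adjusted p = 0.0555), and the 72 h call, at adjusted p from 0.051 to 0.0873, without saline replicate 1, 2 or 3 or 72 h replicate 2 or 3.

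Slc12a3, the cotransporter that defines the distal convoluted tubule, read 2.33, 2.38, 2.79 and 3.01 in wild-type saline kidneys and 0.49, 0.16, 0.12 and -0.12 at 24 h. The highest and lowest treated wild-type values after that were 0.27 and -0.84 at 48 h and 0.12 and -0.48 at 72 h. No treated kidney came within 1 log2 unit of a saline kidney. Slc12a3 fell by 2.47 ± 0.25 at 24 h, to 18.1% of saline (adjusted p = 7.8e-09), by 2.87 ± 0.25 at 48 h, to 13.7% (adjusted p = 1.0e-09), and by 2.77 ± 0.25 at 72 h, to 14.6% (adjusted p = 1.8e-09). From 24 to 72 h it differed by -0.30 (95% interval -0.81 to 0.20), which was not called.

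Slc12a3 in miR-155-/- kidneys read 2.84, 2.52, 2.51 and 2.92 with saline and -0.24, -0.10, 0.96 and 0.11 at 24 h, the highest coming from the array that stands apart. It read 0.11, 0.33, -0.04 and -0.46 at 48 h and -0.43, 0.23, -0.66 and -0.18 at 72 h. Treated and saline kidneys did not overlap. The falls were 2.52, 2.71 and 2.96 at 24, 48 and 72 h, each ± 0.25 (adjusted p = 6.0e-09, 1.8e-09 and 3.0e-10). Without the arrays that stand apart the 24 and 48 h values were -2.78 and -2.71, both called.

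Trpm6, the magnesium channel, read 0.79, 0.71, 1.09 and 1.35 in wild-type saline kidneys, -0.62, -1.17, -1.37 and -1.86 at 24 h, -1.26, -1.19, -1.21 and -2.01 at 48 h, and -1.17, -0.91, -0.96 and -1.33 at 72 h. Treated and saline kidneys lay far apart, and 1 kidney at 48 h read well below the other 3. Trpm6 fell by 2.24, 2.41 and 2.08 at the 3 times, each ± 0.24 (adjusted p = 3.0e-08, 1.7e-08 and 1.8e-07), leaving 21.1%, 18.9% and 23.7% of saline. In miR-155-/- kidneys it read 1.43, 0.97, 0.99 and 1.36 with saline, -0.78, -0.99, -1.54 and -2.02 at 24 h, -1.73, -1.37, -2.05 and -1.77 at 48 h, and -0.87, -0.82, -0.96 and -1.07 at 72 h. All 12 treated kidneys lay far below saline, and the 72 h kidneys lay closest together. The falls were 2.52, 2.92 and 2.12, each ± 0.24 (adjusted p = 4.0e-09, 3.5e-10 and 7.9e-08), and -2.45 and -2.81 at 24 and 48 h without the arrays that stand apart, both called. Trpm6 showed no called difference from 24 h to 48 h or to 72 h in either genotype.

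Pvalb, parvalbumin of the early distal convoluted tubule, followed a course of its own. In wild-type kidneys it read 0.93, 0.88, 1.24 and 1.55 with saline, -0.40, -0.32, -0.65 and -0.35 at 24 h, -2.57, -1.95, -2.17 and -1.68 at 48 h, and -3.59, -3.72, -3.84 and -2.91 at 72 h. No kidney of one time overlapped another time, and each later time was lower. Pvalb fell by 1.58 ± 0.32 at 24 h (adjusted p = 0.000306), by 3.24 ± 0.32 at 48 h (adjusted p = 1.7e-08) and by 4.66 ± 0.32 at 72 h (adjusted p = 1.6e-11), a 25.3-fold decrease that left 3.95% of saline. The fall from 24 to 48 h was 1.66 ± 0.32 (adjusted p = 0.000884) and that from 24 to 72 h 3.08 ± 0.32 (adjusted p = 5.2e-08).

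Pvalb in miR-155-/- kidneys read 0.72, 0.57, 0.37 and 0.94 with saline, -1.46, -1.43, -0.07 and -0.60 at 24 h, -2.43, -2.93, -1.04 and -2.31 at 48 h, and -2.88, -3.32, -3.79 and -4.07 at 72 h. Here the 48 h kidneys overlapped the 24 h kidneys only through the -1.04 of an array that stands apart, and 1 of them lay just below the highest 72 h kidney. Pvalb fell by 1.54, 2.83 and 4.17 against saline, each ± 0.32 (adjusted p = 0.000298, 1.1e-07 and 9.1e-11). Without both arrays the 24 and 48 h values were -1.81 and -3.21, both called. The fall of 2.62 from 24 to 72 h was called (adjusted p = 1.0e-06). The fall of 1.28 from 24 to 48 h was called (adjusted p = 0.0218) but lost its call without 24 h replicate 3 or 4 or 48 h replicate 1, 2 or 4 (adjusted p from 0.0584 to 0.0924), and was -1.39 without both arrays that stand apart (adjusted p = 0.00113).

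The second Pvalb probe, which carries the same transcript accession, gave a steeper course: its wild-type group means were 0.33, -2.43, -3.93 and -5.20 at 0, 24, 48 and 72 h. Both probes thus had the same order of times within each genotype and differed in size. Red blood cell markers also went down with time: 6 of 7 were called lower at 48 h and at 72 h in wild-type kidneys, beside 11.6% and 12.8% of all genes, and their summed level ran from 6.91 to 26.2 with saline and from 2.09 to 2.45 at 72 h. Their part in the Pvalb values was not tested. Within groups Pvalb and the red blood cell list correlated at 0.47 over the 32 arrays. With the other lists Pvalb gave values from -0.73 (thick limb genes) to 0.66 (tubular injury markers). All these values include the 2 arrays that stand apart.

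Wnk1, the kinase upstream of NKCC2 and NCC, read 3.69, 3.60, 3.85 and 4.09 in wild-type saline kidneys, 3.24, 2.83, 2.77 and 2.56 at 24 h, 2.62, 2.66, 2.91 and 2.41 at 48 h, and 2.54, 2.72, 2.51 and 2.49 at 72 h. All treated kidneys lay below all saline kidneys, and the 24 h group reached highest among the treated. Wnk1 fell by 0.96, 1.16 and 1.24 at the 3 times, each ± 0.22 (adjusted p = 0.000973, 0.000247 and 8.8e-05). In miR-155-/- kidneys it read 4.12, 3.80, 3.68 and 4.03 with saline, 2.88, 2.86, 1.60 and 2.17 at 24 h, 2.54, 2.66, 1.56 and 2.44 at 48 h, and 2.69, 2.51, 2.67 and 2.64 at 72 h. The falls were 1.53, 1.61 and 1.28, each ± 0.22 (adjusted p = 2.9e-06, 1.7e-06 and 3.9e-05). Without the arrays that stand apart, which hold the 1.60 and 1.56, the 24 and 48 h values were -1.27 and -1.36, both called. The second Wnk1 probe, for another transcript accession, showed smaller steps, with wild-type group means of -0.49, -0.81, -0.98 and -1.11. No probe here is assigned to the long or the kidney form of Wnk1.

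Cldn16 and Cldn19, the paired claudins, were not called at any time in either genotype. Cldn16 read -1.78, -1.88, -1.67 and -1.60 in wild-type saline kidneys, -1.09, -1.34, -1.18 and -1.83 at 24 h, -1.49, -1.45, -1.42 and -1.37 at 48 h, and -1.09, -1.49, -1.61 and -1.60 at 72 h. The 48 h kidneys all lay above saline, and the 24 h and 72 h kidneys overlapped it. Its wild-type differences were 0.37 (95% interval -0.59 to 1.33), 0.30 (-0.66 to 1.26) and 0.29 (-0.68 to 1.25). Cldn16 in miR-155-/- kidneys read -1.32, -1.65, -1.71 and -1.55 with saline, -1.01, -1.16, -3.70 and -1.29 at 24 h, -1.36, -0.82, -4.02 and -1.36 at 48 h, and -1.83, -1.78, -2.00 and -1.59 at 72 h. There 1 kidney each at 24 and 48 h lay far below saline, while the other 3 lay above the saline median of their genotype. Its differences there were -0.23 at 24 h, -0.33 at 48 h and -0.24 at 72 h.

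Without the 2 arrays that stand apart, Cldn16 was called higher at 24 h in both genotypes, by 0.37 in wild type (adjusted p = 0.0364) and by 0.40 in miR-155-/- kidneys (adjusted p = 0.0334), which turned the direction there. At 48 h the miR-155-/- value turned to 0.38, not called (adjusted p = 0.0596). In that fit 27.4% and 28% of all genes were called higher at 24 h in wild type and in miR-155-/- kidneys. Cldn16 was then called lower at 72 h than at 24 h in miR-155-/- kidneys, by 0.65 (adjusted p = 0.0018). Cldn19 ranged from -1.92 to -1.13 in wild-type saline kidneys and from -2.43 to -1.43 over the 12 treated ones. Its differences from saline were -0.23, -0.02 and -0.42 in wild type and -0.50, -0.34 and -0.17 in miR-155-/- kidneys, with adjusted p from 0.377 to 0.986. On the arrays that stand apart Cldn19 read -3.94 and -4.10, and without them the miR-155-/- differences turned direction, to 0.03 at 24 h and 0.30 at 48 h, neither called. The 95% intervals of these 6 differences run from -1.42 at the lowest to 0.91 at the highest.

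Between treated times in wild type, 1 of the 9 genes rose and 1 fell from 24 to 48 h, Umod and Pvalb, where 5.88% of all genes were called higher and 7.22% lower. The same pair was called from 24 to 72 h, where 11.9% of all genes were higher and 14.7% lower. In miR-155-/- kidneys Pvalb alone was called from 24 to 48 h (2% of all genes lower), and Umod and Pvalb were called from 24 to 72 h (13.6% higher and 18.3% lower). Slc12a3, Trpm6, Wnk1 and Kcnj1 were called in none of these 4 comparisons. Without both arrays that stand apart, 5 of the 36 differences between times turned direction, none of them called in either fit. From 24 to 72 h in miR-155-/- kidneys these were Kcnj1 (0.47 to -0.14), Cldn19 (0.34 to -0.20) and Wnk1 (0.25 to -0.01). From 24 to 48 h they were Kcnj1 (-0.10 to 0.07) and Slc12a3 (-0.20 to 0.07), also in miR-155-/- kidneys.

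**Figure D3:**
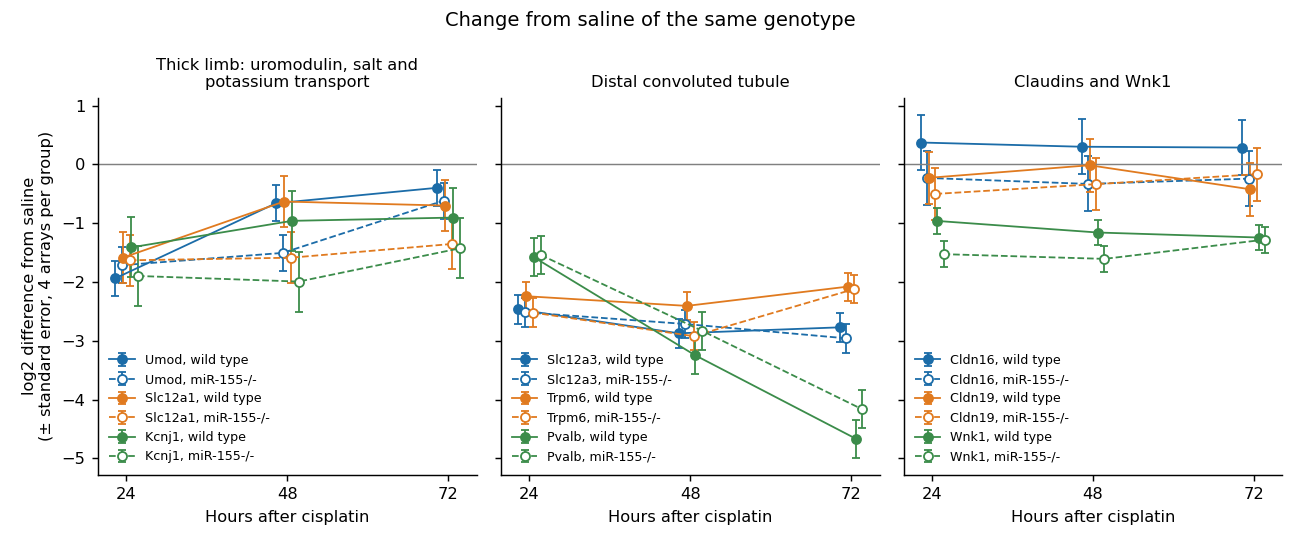
Log2 difference from saline of the same genotype (y axis, ± standard error) at 24, 48 and 72 h after cisplatin for the 9 genes in 3 panels; filled points and solid lines are wild type, open points and dashed lines miR-155-/-. Umod moves back from -1.94 to -0.40 in wild type, Pvalb descends to -4.66, Slc12a3 and Trpm6 stay between -2.96 and -2.08, and the claudins lie near 0.

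At 48 h, 4 of the 9 genes were called lower in wild type (11.6% of all genes) and 7 in miR-155-/- kidneys (21.1% of all genes). At 72 h, 4 were called lower in wild type (12.8%) and 6 in miR-155-/- kidneys (17.5%). The 4 genes of wild type were Slc12a3, Trpm6, Pvalb and Wnk1 at both times, and the genes called in addition in miR-155-/- kidneys were Slc12a1 and Kcnj1 at both times and Umod at 48 h. The wild-type counts depend on how the spread is estimated: without the 2 miR-155-/- arrays they were 6 and 5, against 7 in miR-155-/- kidneys at both times, and with only the compared groups fitted they were 8, Cldn16 being called higher, and 7, against 5 and 7 in miR-155-/- kidneys, where Slc12a1 and Kcnj1 lost their 48 h calls. Over all genes, 18.3% and 19.3% were called lower in wild type at 48 and 72 h without the arrays, 18.2% and 23.5% in miR-155-/- kidneys, and, with the compared groups alone, 16.5% and 21% in wild type and 11.5% and 20.8% in miR-155-/- kidneys. The groups did not overlap, treated below saline, for 6 genes at 48 h and 6 at 72 h in wild type, which held for 17.4% and 20.8% of all genes.

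No difference between the genotypes was called for any of the 9 genes. With saline, 0 of 9 were called between miR-155-/- and wild-type kidneys (0.114% of all genes called), and the same was so at 24 h (0.08%), 48 h (0.101%) and 72 h (0.72%). The smallest adjusted p values at the 4 times were 1, 0.532, 0.308 and 0.675, and 0, 1, 2 and 0 genes had an unadjusted p under 0.05, beside 3.32%, 9.31%, 15.2% and 10.9% of all genes. The gene at 24 h was Wnk1 (-0.47) and the genes at 48 h were Umod (-0.83) and Slc12a1 (-0.93). Without the 2 arrays that stand apart these values were -0.21, -0.31 and -0.25, and none had an unadjusted p under 0.05 (0.195, 0.144 and 0.448). The difference between genotypes in the change from saline was called for 0 of 9 genes at 24, 48 and 72 h by limma, with 0, 0 and 0 genes at an unadjusted p under 0.05. Over all genes, 0%, 0% and 0.211% were called for this difference, and 3.31%, 7.17% and 7.57% had an unadjusted p under 0.05.

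A missed threshold does not show that the genotypes act alike, and the intervals give the sizes still covered for Slc12a3 and Umod. For Slc12a3 the 95% interval of the difference between the genotypes' changes was -0.76 to 0.67 at 24 h, -0.56 to 0.87 at 48 h and -0.90 to 0.53 at 72 h. For Umod it was -0.66 to 1.11 at 24 h, -1.73 to 0.04 at 48 h and -1.10 to 0.66 at 72 h. The array with 4.26 takes part at 48 h, where the difference of -0.84 was -0.33 without the 2 arrays that stand apart. Kcnj1 and Slc12a1, whose intervals are not given here, had larger differences at 48 h, -1.03 and -0.96. These were -0.25 and -0.28 without the 2 arrays. Without them, 0 of 9 genes were called in each of the 7 genotype comparisons by limma, the smallest adjusted p being 0.165 at 72 h between genotypes. In that fit 0, 1, 0 and 2 genes had an unadjusted p under 0.05 between genotypes at 0, 24, 48 and 72 h, beside 6.14%, 7.72%, 4.97% and 19.6% of all genes. For the difference between the genotypes' changes, 0, 0 and 1 did, beside 4.8%, 4.98% and 14.2%. Between genotypes these were Pvalb at 24 h (-0.73, and -0.46 with all arrays) and Cldn16 (-0.36) and Slc12a1 (-0.62) at 72 h. Between the changes it was Cldn16 at 72 h (-0.53). The 72 h and saline groups do not hold the 2 arrays, so these 72 h values have the same size in both fits. The signs rest on these arrays too: 7 of the 36 differences between genotypes and 7 of the 27 differences between their changes turned without them, none of them called in either fit.

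The order of the 8 group means differed between genes. Umod was highest in both saline groups, then at 72 h, 48 h and 24 h, and only wild-type saline and wild-type 72 h among neighbours in that order did not overlap. For Umod, miR-155-/- 48 h overlapped miR-155-/- 24 h only through the 4.26 of an array that stands apart. Pvalb descended from saline through 24 h and 48 h to 72 h, with wild type and miR-155-/- next to each other at every step. For Pvalb, groups of the same time overlapped, while saline did not overlap 24 h, nor miR-155-/- 24 h wild-type 48 h. For Wnk1 the saline groups stood above the 6 treated groups, whose neighbours all overlapped.

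The wider thick limb list, 20 of 21 genes tested, had 13 genes called lower and 0 higher at 24 h in wild type, with a median of -1.03 beside 17.6% and 0.07 over all genes. Members of this list at 24 h included Pth1r, the parathyroid hormone receptor (-1.52 ± 0.22, adjusted p = 3.3e-06), the homeobox factors Irx2 (-0.90) and Irx1 (-1.15), and the potassium channel subunit Kcnj16 (-1.02). By 72 h 4 were lower and 1 higher in wild type, beside 12.8% and 12.5% of all genes, and the median was -0.49. From 24 to 72 h 6 rose, beside 11.9% of all genes. Casr, the calcium-sensing receptor, was among the 4 that were lower at 72 h (-1.58 ± 0.36, adjusted p = 0.0015), with Bsnd, the barttin subunit of the chloride channels (-1.33), and Pth1r (-0.76). Cldn14, the claudin that blocks the Cldn16 and Cldn19 path and is known as a target of Casr signalling, was the 1 gene higher (0.77 ± 0.19, adjusted p = 0.0024). In miR-155-/- kidneys 15, 14 and 11 of the 20 were lower at 24, 48 and 72 h, and 15, 13 and 15 without both arrays that stand apart. Without those arrays the wild-type counts were 16, 10 and 8 in place of 13, 5 and 4, beside 22.3%, 18.3% and 19.3% of all genes in that fit, and 24.3%, 18.2% and 23.5% in miR-155-/- kidneys.

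The distal convoluted and connecting tubule list, 18 of 19 genes tested, had 12 called lower and 0 higher at 24 h in wild type (median -0.93) and 6 lower at 72 h (median -0.41), beside 17.6% and 12.8% of all genes called lower. Without the 2 arrays that stand apart these counts were 13 and 10, beside 22.3% and 19.3%. Egf, which encodes the epidermal growth factor precursor, had the smallest adjusted p and fell by 3.07 ± 0.28 at 24 h (adjusted p = 1.8e-09) and by 2.57 at 72 h. Kl, which encodes Klotho, fell by 1.59 at 24 h and 1.73 at 72 h, and Emx1, a homeobox factor, by 1.26 and 1.19. Calb1, the calcium carrier calbindin of the distal convoluted and connecting tubule, fell by 2.07 at 48 h and 2.04 at 72 h. Esrrg, an orphan nuclear receptor, took the course of Umod: it fell by 2.69 ± 0.43 at 24 h and rose by 2.32 ± 0.43 from 24 to 72 h (adjusted p = 0.00018), and its 72 h difference of -0.37 was not called. In miR-155-/- kidneys 14, 13 and 9 genes were lower (22.5%, 21.1% and 17.5% of all genes), and 15, 11 and 10 without both arrays. Egf was at -3.15, -3.97 and -4.12 there, and at -3.44, -4.10 and -4.12 without them.

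Regulators of the salt cotransporters were tested as a list of 14, of which 12 passed the filter. At 24 h in wild type 5 of the 12 fell, beside 17.6% of all genes, and 7 without the 2 arrays that stand apart (22.3%). Among the 5 were Wnk2 (-2.25 ± 0.18, adjusted p = 1.4e-10), the SPAK gene Stk39 (-1.56 ± 0.23, adjusted p = 3.6e-06), the calcineurin subunit Ppp3ca (-0.98) and Cab39l, a scaffold of SPAK (-1.07). Stk39 then rose by 1.32 ± 0.23 from 24 to 72 h (adjusted p = 6.3e-05), while Wnk2 was still lower at 72 h (-1.24). Sgk1, a kinase induced by aldosterone and by stress, rose at 48 h (0.85) and 72 h (1.45 ± 0.24, adjusted p = 3.4e-05) in wild type. Of 9 transcription factors of these segments, 4 fell at 24 h in wild type, and 5 without the 2 arrays that stand apart, beside 17.6% and 22.3% of all genes. Among the 4 were Pcbd1, a coactivator of transcription (-0.68 ± 0.08), and Tfcp2l1 (-0.60). Pcbd1 was lower at 72 h too (-0.78), whereas Tfcp2l1 was then higher by 0.60 (adjusted p = 0.039).

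Lists of other cells were read alongside. In wild type at 24 h, 14 of 16 proximal tubule markers were lower (median -1.32), 4 of 11 principal cell markers and 2 of 10 intercalated cell markers, beside 17.6% of all genes, while 4 of 9 tubular injury markers were higher, beside 21% of all genes. Without the 2 arrays that stand apart the counts lower were 14, 5 and 5, beside 22.3%. The summed level of the proximal tubule markers ran from 882 to 990 with saline and from 507 to 581 at 24 h, in multiples of the 75th percentile. At 72 h, 8 proximal tubule markers were lower (median -0.48), beside 12.8% of all genes, and 7 injury markers were higher (median 2.27), beside 12.5%. The relation of these lists to the 9 genes was not tested.

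**Figure D4:**
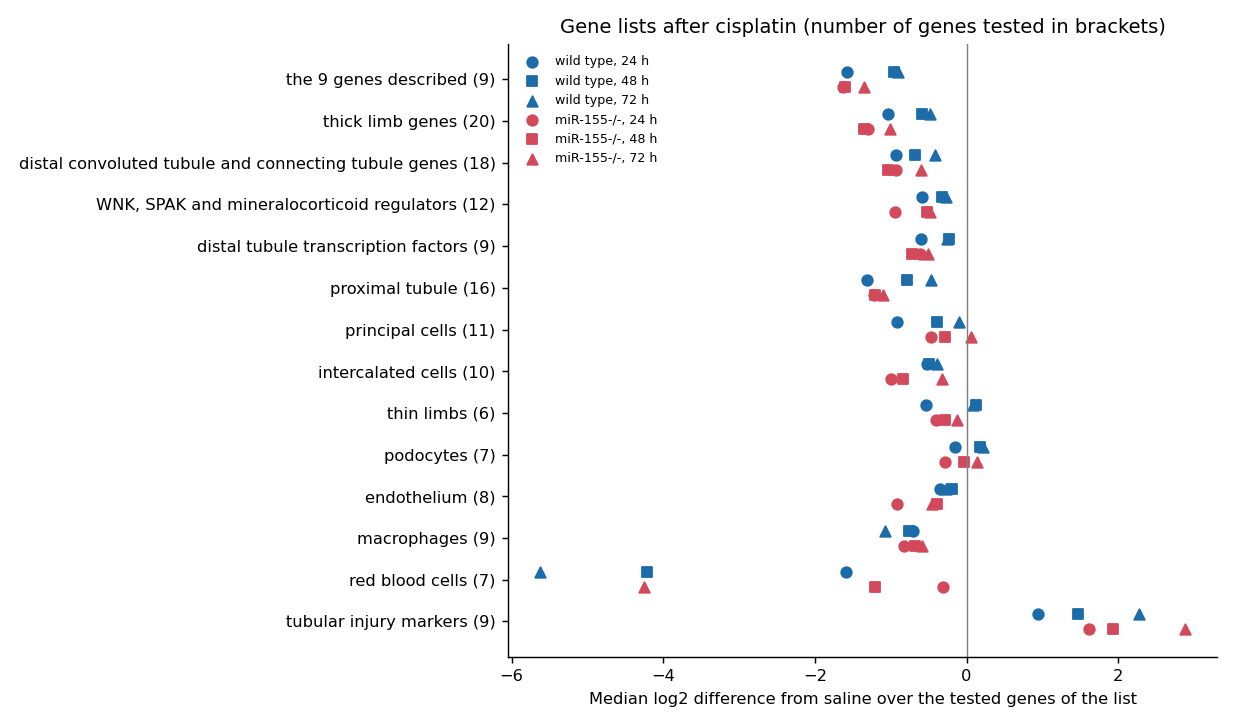
Median log2 difference from saline over the tested genes of each list (x axis) for 24 h (circles), 48 h (squares) and 72 h (triangles), blue for wild type and red for miR-155-/-; the number of genes tested stands in brackets. The 9 genes lie lowest among the tubule lists at 24 h (-1.58 and -1.63), injury markers lie above 0, and red blood cell markers reach -5.62 in wild type at 72 h. The genes and lists were chosen with earlier results of these data known, so their order is a description only.

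Kidneys of 1 group also differed among themselves, and the 9 genes did not vary as 1 block. Over the 32 arrays, with group means removed, Kcnj1 followed Cldn16 (Pearson r = 0.97) and Cldn19 (0.95), and Umod followed Slc12a1 (0.88). Without the 2 arrays that stand apart these values were 0.83, 0.77 and 0.71 over 30 arrays. Trpm6 followed Wnk1 (0.75, and 0.91 without these arrays). Pvalb went opposite to Kcnj1 and Cldn19 (-0.74 each, and -0.38 and -0.40 without them). Slc12a3 and Pvalb, both of the distal convoluted tubule, gave 0.19, and -0.01 without these arrays. These arrays share groups, slides and scaling, and the values are descriptions without a test.

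The genes most like each member over all 32 arrays, out of 15807 named genes compared by Pearson correlation, were Me3 for Umod (r = 0.974), Ppp1r1a for Slc12a1 (0.966), Mapk10 for Slc12a3 (0.960), Ccdc61 for Kcnj1 (0.974), Camta1 for Trpm6 (0.964) and Acsm3 for Pvalb (0.956). For Cldn16, Cldn19 and Wnk1 they were Tubd1 (0.921), Il1f5 (0.935) and Ipcef1 (0.950). All these values include the arrays that stand apart, on which Kcnj1, Cldn16 and Cldn19 were the lowest of their group. Values without these arrays are not given, and their part in the matches was not tested. Me3 differed from saline by -2.21 at 24 h and -0.22 at 72 h in wild type, and Mapk10 by -2.62 and -2.82. The next genes were Cradd and Kif16b for Umod, Cldn10 and Ank2 for Slc12a1, Phyhip and Cyp51 for Slc12a3, and Emx1 was among the 3 named for Wnk1.

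Arrays lay on 8 slides of 4 and 2 scan days, and the groups were not balanced over the days. Most wild-type saline arrays were scanned on another day than most wild-type 24 h and 72 h arrays. With slide as a fixed block the wild-type differences at 24 h were -2.01 for Umod, -2.33 for Slc12a3, -2.17 for Trpm6 and -1.38 for Pvalb, all called. With scan day as a block they were -2.03, -2.42, -2.21 and -1.49. On the single slide that held both groups, with 1 array each, they were -1.96, -2.18, -1.96 and -1.25. For wild type at 48 h, slides 2 and 4 held both groups and gave -2.74 and -2.38 for Slc12a3 and -3.72 and -2.83 for Pvalb. No slide held both wild-type saline and wild-type 72 h arrays.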

How the data were processed

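Total RNA of 32 mouse kidneys was hybridised to 1-colour Agilent whole mouse genome 4x44k v2 arrays, 4 arrays in each of 8 groups. Per the file headers, the deposited scanner files come from Agilent Feature Extraction 10.7.3.1 and hold background-corrected intensity per spot, not normalized between arrays. The authors' deposited value table equals that intensity times 1 factor per array, on a linear scale without centring; its 75th percentile was 999.3 to 1000 and its column medians 64.5 to 83.6.

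From the 43020 spots that are not controls, outlier-flagged spots (59 to 976 per array) were left out. Then log2 intensity minus the array's 75th percentile was taken, and spots were averaged into 39429 probes. Of these, 27234 matched a single gene symbol through their RefSeq transcript accession. The brightest probe stood for a gene. A gene was tested if called well above background on every array of 1 or more groups, with at least 3 values per group, which left 23743 genes. No spot was saturated. limma 3.58.1 in R 4.3.3 fitted 8 group means over 32 arrays with trended empirical Bayes. Two-sided p-values were adjusted by Benjamini-Hochberg over all genes in each of 17 comparisons and called under 0.05. The precision is limited by 4 arrays per group. Replicate numbers did not pair the samples. Labels describe separate mice, and p-values measure the spread between them. The fit was tested on simulated data with independent noise of equal spread on every array. That test does not cover arrays that stand apart. The 9 genes and the lists were chosen with earlier results of these data known. Named were these 9 genes, from each list up to 4 called genes, taken by smallest adjusted p, and the 3 most correlated genes of each of the 9; a few list genes were followed into other comparisons after their values were seen. Alternatives changed the background, scaling, filter, probe choice, slide, scan day, replicate block, weights and arrays included. Promoter windows come from RefSeq (GRCm38.p6), and all 9 genes matched by symbol. Protein sequences were not used here. Some named items are not reported here.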

Additional observations from a re-analysis of the deposited data

Results flagged for a closer look

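Each of the 9 genes was looked at in each of the 8 groups of 4 arrays for a single kidney far from the other 3, judged by Dixon's ratio of gap to range against its 95% critical value. Chance alone marks about 1 in 20 groups, and 5 of 72 were marked here. Slc12a1 was low in replicate 4 of the miR-155-/- saline group, at 2.38 against 3.37 to 3.45 in the other 3 kidneys. Kcnj1 was low in replicate 2 of the wild-type saline group, at 5.01 against 5.22 to 5.23. Trpm6 was low in replicate 4 of the wild-type 48 h group, at -2.01 against -1.26 to -1.19. Cldn16 was low in replicate 3 of the miR-155-/- 24 h group, at -3.70, and in replicate 3 of the miR-155-/- 48 h group, at -4.02. The last 2 are the arrays that stand apart over all genes, and their part in the results was not tested.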

How the results depend on the processing

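Of the 42 single-gene results called, 39 of them lower, 0 reversed under 14 other settings or when any of the 32 arrays was left out. Counts of called genes moved by over 1.5 times in these cases: in wild type at 48 h 8 in place of 4 with the compared groups alone, and at 72 h 7 in place of 4 under array weights and also with the compared groups alone. For miR-155-/- kidneys from 24 to 48 h the count was 0 in place of 1 with normexp background (chosen after seeing the data, on the median signal, since the mean-signal version was not run), with slide as a fixed block and with the compared groups alone, and 2 with array weights and without both arrays that stand apart. The cause was not tested. Leaving out 1 array gave 6 to 8 called genes in wild type at 24 h, 4 to 6 at 48 h and 4 to 5 at 72 h, and 7 to 8, 7 to 7 and 4 to 7 in miR-155-/- kidneys. Between treated times it gave 2 to 3 for each wild-type comparison, and 0 to 2 and 2 to 3 in miR-155-/- kidneys. The 7 genotype comparisons stayed at 0. With the replicate number as a block the counts were 7, 4 and 4 in wild type and 7, 7 and 6 in miR-155-/- kidneys, with no call changed by over 1.5 times; deviations of same-numbered arrays correlated at 0.06, -0.03, -0.02 and -0.03 on average, so the numbers name the samples only.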

Other observations

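Ptgs2, which encodes the inducible cyclooxygenase of macula densa and interstitial cells and stands on the thick limb list, was called higher in miR-155-/- kidneys at 24, 48 and 72 h, by 2.75, 3.55 and 3.56 (each ± 0.90; adjusted p = 0.0132, 0.0024 and 0.0027 by limma). In wild-type kidneys its differences were 0.11, 0.56 and 0.13, none of them called. The difference between the genotypes' changes was not called at any time (adjusted p = 0.94, 0.66 and 0.42). Without both arrays that stand apart, the Ptgs2 values in miR-155-/- kidneys were 1.78 (adjusted p = 0.051), 2.70 and 3.56. This gene was singled out after its values were seen.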
